A study of Mus musculus with 13 samples.

Results

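The genes described here are 40 components of the PI3K, AKT and mTOR signalling pathway in mouse hematopoietic stem cells (HSCs). They were taken by name from a list that covers the route from adaptor to effector. All 40 were found among the 13201 genes of the deposited expression table. The table holds 13 RNA-seq libraries, each made by Smart-seq2, a full-length polyA method, from 100 HSCs sorted from mouse bone marrow. The HSCs were either wild type (WT) or lacked MEK1 (KO), the kinase encoded by Map2k1 that phosphorylates ERK, and came from untreated mice or from mice given 5-fluorouracil (5-FU), a drug that kills dividing blood cells. The series title places the study in an ERK-dependent feedback that keeps HSCs from exhaustion, and the comparisons ask how the loss of MEK1 and 5-FU changed the HSC transcriptome.

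Untreated WT comprised 3 libraries (D1, D2, D3), untreated KO 3 (D4, D5, D6), 5-FU WT 4 (A2, A3, A4, D4) and 5-FU KO 3 (A5, A6, A8), and values are given in this order throughout. The sources used here do not give the driver of the deletion, the strain, age and number of the mice, the dose of 5-FU or the time after it. No label says whether replicate libraries were drawn from different mice, and p-values therefore reflect only how far these pools varied, some of which may be technical. The untreated libraries are dated 2015 and the 5-FU libraries 2016, except 5-FU WT D4, which is dated 2015. The design text counts a technical repeat among the untreated WT libraries, and by its labels untreated WT D1 was run on 2 flowcells, that of 5-FU WT D4 included.

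Class I PI3K makes the membrane lipid PIP3 downstream of cytokine receptors and G protein-coupled receptors, and PIP3 brings PDK1 and AKT together at the membrane. AKT then restrains GSK3 and the TSC complex, which frees Rheb to switch on mTORC1 at the lysosome, where the Rag GTPases and Ragulator report amino acids. mTORC1 drives cap-dependent translation through S6 kinases, 4E-BPs and eIF4E, and in HSCs strong activation of this route is known to end quiescence and to deplete the stem cell pool. The libraries measured mRNA and not phosphorylation, so every value below is a transcript level.

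The 5-FU WT libraries A3 and D4 were nearly alike across all genes (Pearson r = 0.988, against 0.912 to 0.943 for the other pairs of the groups outside 5-FU KO and 0.966 to 0.977 within 5-FU KO), although they carry different names, dates and flowcells. Over the 40 genes their median absolute difference was 0.10 on the deposited log2 scale, against 0.23 to 0.38 for the other 5-FU WT pairs compared. Whether they are 1 sample sequenced again or separate samples is not settled by the labels, so that n = 4 for 5-FU WT may stand for 3 samples. The differences after 5-FU of the genes that passed, and of the gene with the smallest p in each other role, are also given with A3 and D4 averaged into 1 value. Total counts recovered from the table ranged from 11416753 to 45384866 reads per library. Map2k1 was at 50.3% of WT in untreated KO and at 33.1% in 5-FU KO without overlap in either case (exact two-sided permutation test on the deposited values, p = 0.1, the smallest possible with 3 against 3, and p = 0.0857, where 0.0286 is possible). In the limma fit used below for all genes, Map2k1 did not pass untreated (log2 difference -0.69, limma adjusted p = 0.46). It passed after 5-FU (-0.96, limma adjusted p = 0.0339). Of 12 HSC markers, all were in the table, and their summed level was 22696 to 26160 in untreated WT, 19240 to 21573 in untreated KO, 15147 to 20766 in 5-FU WT and 9861 to 11240 in 5-FU KO; after 5-FU, 4 of the 12 were lower in KO and 1 was higher (limma). With 5-FU in WT, 2 of the 12 were called higher and 5 lower (limma), among the latter Procr at 54.7 on average against 880.0 in untreated WT, and Fgd5 at 37.3 against 475.

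The 40 genes span a wide range of transcript levels, and the Ragulator genes, Eif4ebp1 and Eif4e lead. On a per-length scale, the normalized count per kilobase of exon averaged over the 4 groups, the highest were Lamtor5 (3720), the 4E-BP gene Eif4ebp1 (1669), Lamtor2 (1325.4), Eif4e (1325.0), Lamtor4 (787), Lamtor1 (744) and Lamtor3 (542). Thus all 5 Ragulator subunits stood among the 7 most abundant of the 40. Of these 7, all but Lamtor2 have a near copy elsewhere, of at least 90% identity over 200 bases or more. How reads of such copies were assigned is not known. The lowest were the adaptor Irs2 (1.49), the regulatory subunit Pik3r5 (9.63), the p110β gene Pik3cb (10.1) and the mTORC1 scaffold Rptor (11.5). The median of the 40 was 67.5, against 77.8 for all genes tested.

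**Figure D1:**
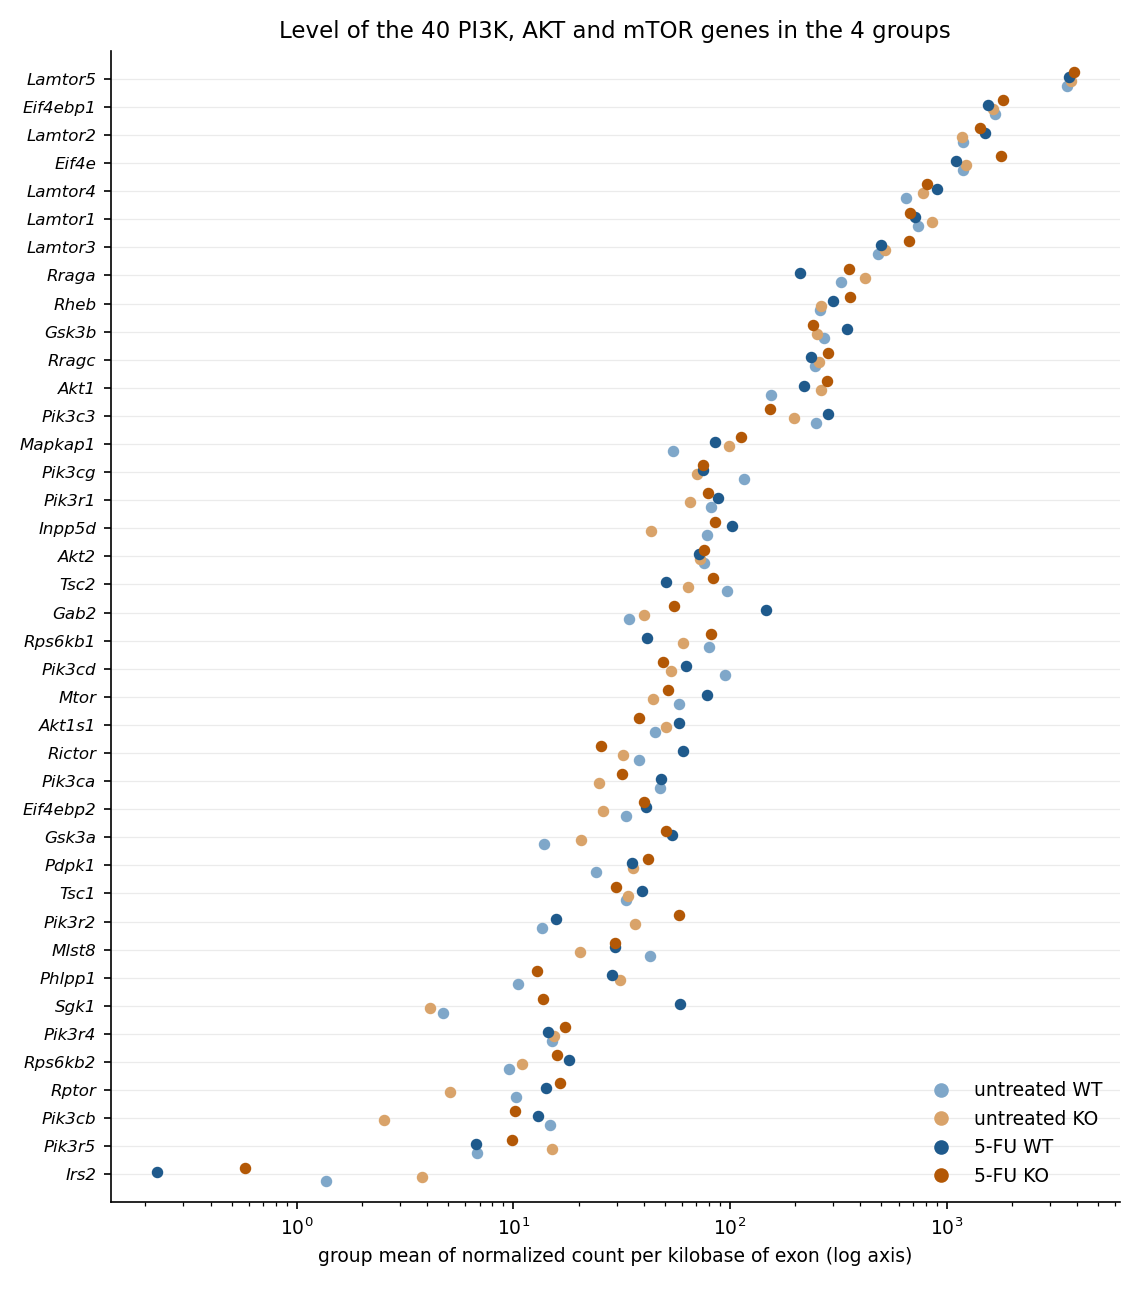
Each row is a gene and each point the mean of a group, as normalized count per kilobase of exon on a log axis, ordered by the mean of the 4 groups. The Ragulator genes, Eif4ebp1 and Eif4e occupy the top 7 rows, and Irs2 lies lowest at 1.49.

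Where the pathway has several genes for the same step, HSCs held them at unequal levels. On the same per-length scale Pik3cg, the p110γ gene, supplied 37.9% to 46.0% of the class I catalytic mRNA in the 4 groups and Pik3cb 1.64% to 6.43%. Gsk3b made up 83.3% to 95.2% of the GSK3 mRNA, Eif4ebp1 97.4% to 98.4% of the mRNA of the 4E-BP genes listed, and Rps6kb1 70.0% to 87.6% of that of the S6 kinases. These shares are group means of the shares within each library.

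To be tested, a gene had to reach a normalized count of 10 in 3 or more libraries, and 39 of the 40 did. Of the 40, 36 had a read in every library. The exception to the test was Irs2, an adaptor that links insulin and cytokine receptors to PI3K. Its normalized counts were 25.8, 0 and 0 in untreated WT, 70.9, 0.818 and 0 in untreated KO, 0, 0, 5.71 and 0 in 5-FU WT and 1.34, 8.25 and 1.30 in 5-FU KO. It was thus at 0 in 6 libraries, in each of which a count of 0 still allows 3 reads, a normalized count of 1.99 to 4.35. This limit covers counting error only.

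Of the 39 genes, 3 were called in a comparison of the groups, the adaptor gene Gab2, the mTORC2 gene Rictor and the cap-binding gene Eif4e. Each gene was tested with limma on the deposited values, with p-values adjusted by Benjamini-Hochberg over 12846 genes and called at 0.05. In untreated HSCs none of the 39 was called between KO and WT (limma), where 4 of all genes tested were called, 0.0311% (0.0234% higher and 0.00778% lower in KO). At an unadjusted p below 0.05, 4 of the 39 passed (10.3%), against 10% of all genes. After 5-FU, 3 of 39 were called (7.69%), Eif4e higher in KO and Rictor and Gab2 lower, against 10.9% of all genes tested (5.36% higher and 5.5% lower); at an unadjusted p below 0.05, 6 passed (15.4%), against 24.8%. 5-FU itself called 1 of 39 in WT, Gab2 (2.56%), against 6.68% of all genes (3.72% higher and 2.96% lower), and 6 at an unadjusted p below 0.05 (15.4%, against 22.4%). In KO it called none by limma, against 5.92% of all genes (2.78% higher and 3.14% lower), and 4 passed at an unadjusted p below 0.05 (10.3%, against 20.0%). The test of whether the 5-FU change differed between genotypes called none by limma, against 2.84% of all genes (1.04% higher and 1.8% lower), and 5 passed at an unadjusted p below 0.05 (12.8%, against 16.7%). In each comparison the share of the 39 genes called was no higher than that of all genes. The median log2 difference of the 39 genes after 5-FU was 0.01, against -0.02 for all genes, and the median absolute log2 difference of the 39 genes between KO and WT was 0.20 untreated and 0.21 after 5-FU, and that of all genes was 0.19 and 0.26. On simulated counts, 100 genes were changed 2-fold and 100 4-fold, all with a mean normalized count of 100 or more. Of these, 21% of 2-fold and 62% of 4-fold changes were recovered for the untreated comparison and 24% and 65% after 5-FU. The simulations gave 87 and 91 calls, against 4 and 1395 in the data. As the adjusted p depends on how many genes change, these shares need not hold for the data or for lower genes. A gene without a call may still have changed.

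**Figure D2:**
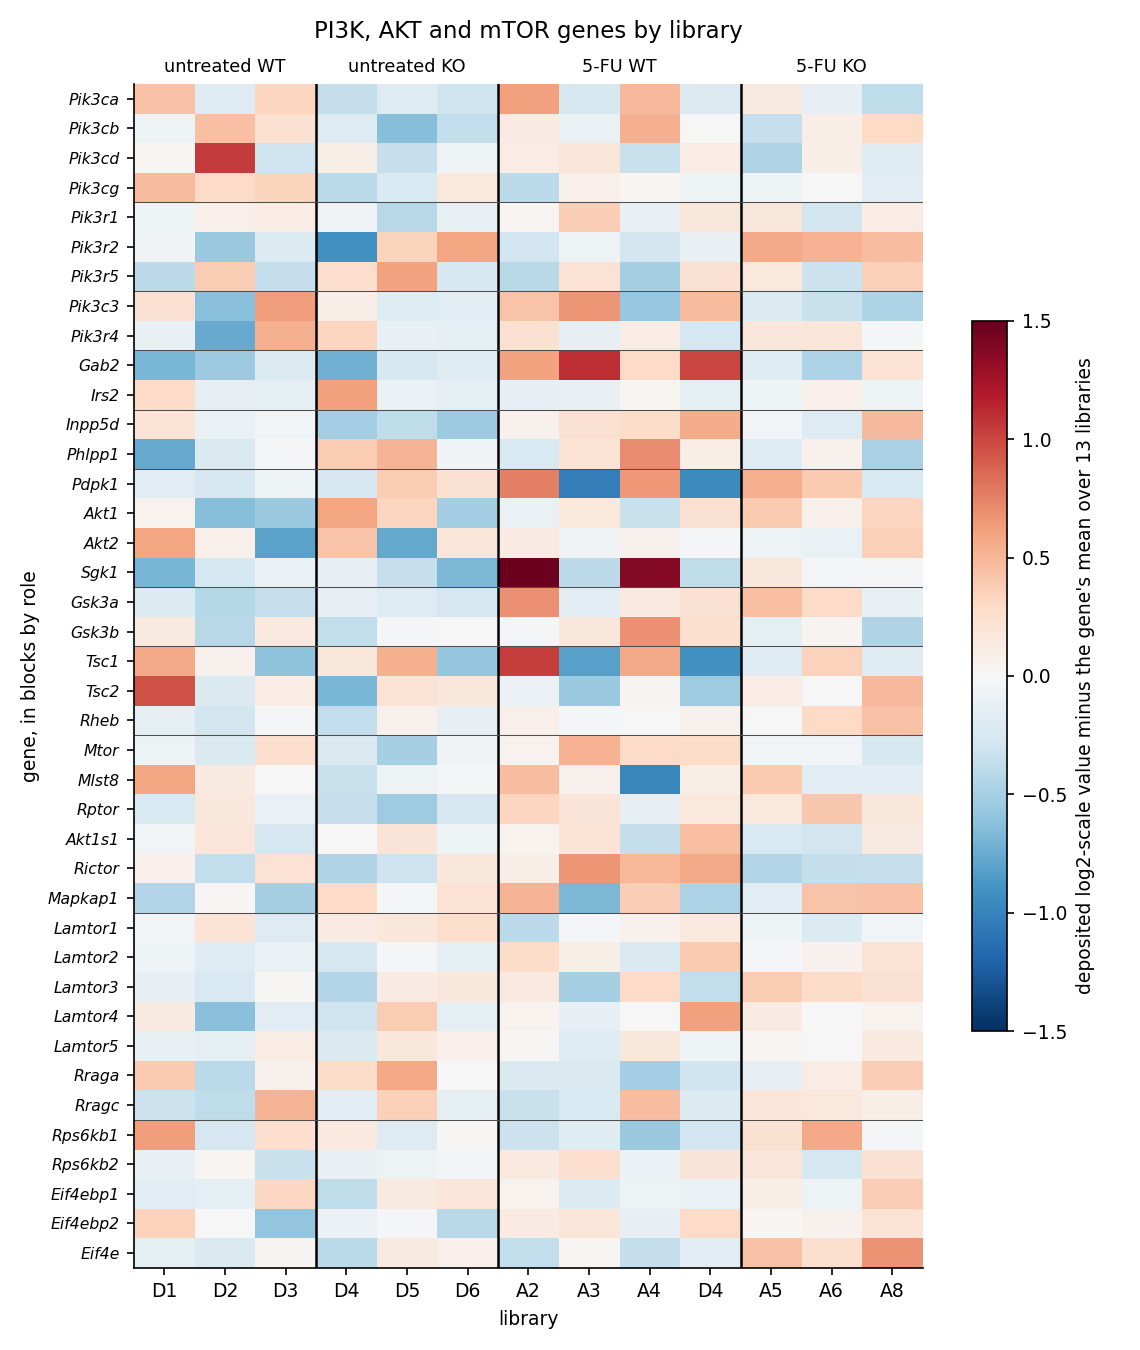
Each row is a gene, in blocks by role, each column a library, and the colour is the deposited log2-scale value minus the mean of that gene over the 13 libraries, with red above and blue below it. Eif4e is red in the 3 5-FU KO libraries, Gab2 and Rictor are reddest in 5-FU WT, and Pdpk1, Tsc1, Sgk1 and Mapkap1 divide the 5-FU WT libraries A2 and A4 from A3 and D4.

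Other cell features moved with the comparison after 5-FU. The summed level of 12 megakaryocyte and platelet markers in the table was 34623 to 59299 in 5-FU WT and 6154 to 8785 in 5-FU KO, with 10 of the 12 lower in KO (limma), and in untreated libraries it was 4746 to 9151. Of 13 erythroid markers tested, 6 were lower in 5-FU KO, and the list, mostly Car2, summed to 47211 to 52531 against 30300 to 41773. The neutrophil and monocyte list, mostly Prtn3, summed to 4418 to 6059 in 5-FU WT and 2489.8 to 2581 in 5-FU KO, with Mpo at 0 in 9 libraries. Its members went both ways, with 4 of the 11 tested called lower and 1 called higher in 5-FU KO (limma). The mast cell and basophil list (3 of 8 listed genes in the table) summed to 1875 to 2354 against 257 to 806, the lymphoid list (5 of 12) to 7365 to 8075 against 2337 to 4787, and the endothelial and stromal list (3 of 8) to 428 to 1029.99 against 361 to 734. The 20 cell cycle genes summed to 58080.4 to 71740.1 in 5-FU WT and 98901 to 116123 in 5-FU KO, with 9 of 20 higher in KO, and to 39562 to 61882 in untreated WT and 66175 to 78675 in untreated KO. Their difference was thus not particular to 5-FU. Between the untreated genotypes 19 of the 20 had a log2 difference above 0, and 2 were called higher in KO (limma), against 0.0234% of all genes. These markers' part in the differences of the pathway genes after 5-FU was not tested. In pools of 100 cells, fewer cells of a type and less RNA per cell cannot be told apart.

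**Figure D3:**
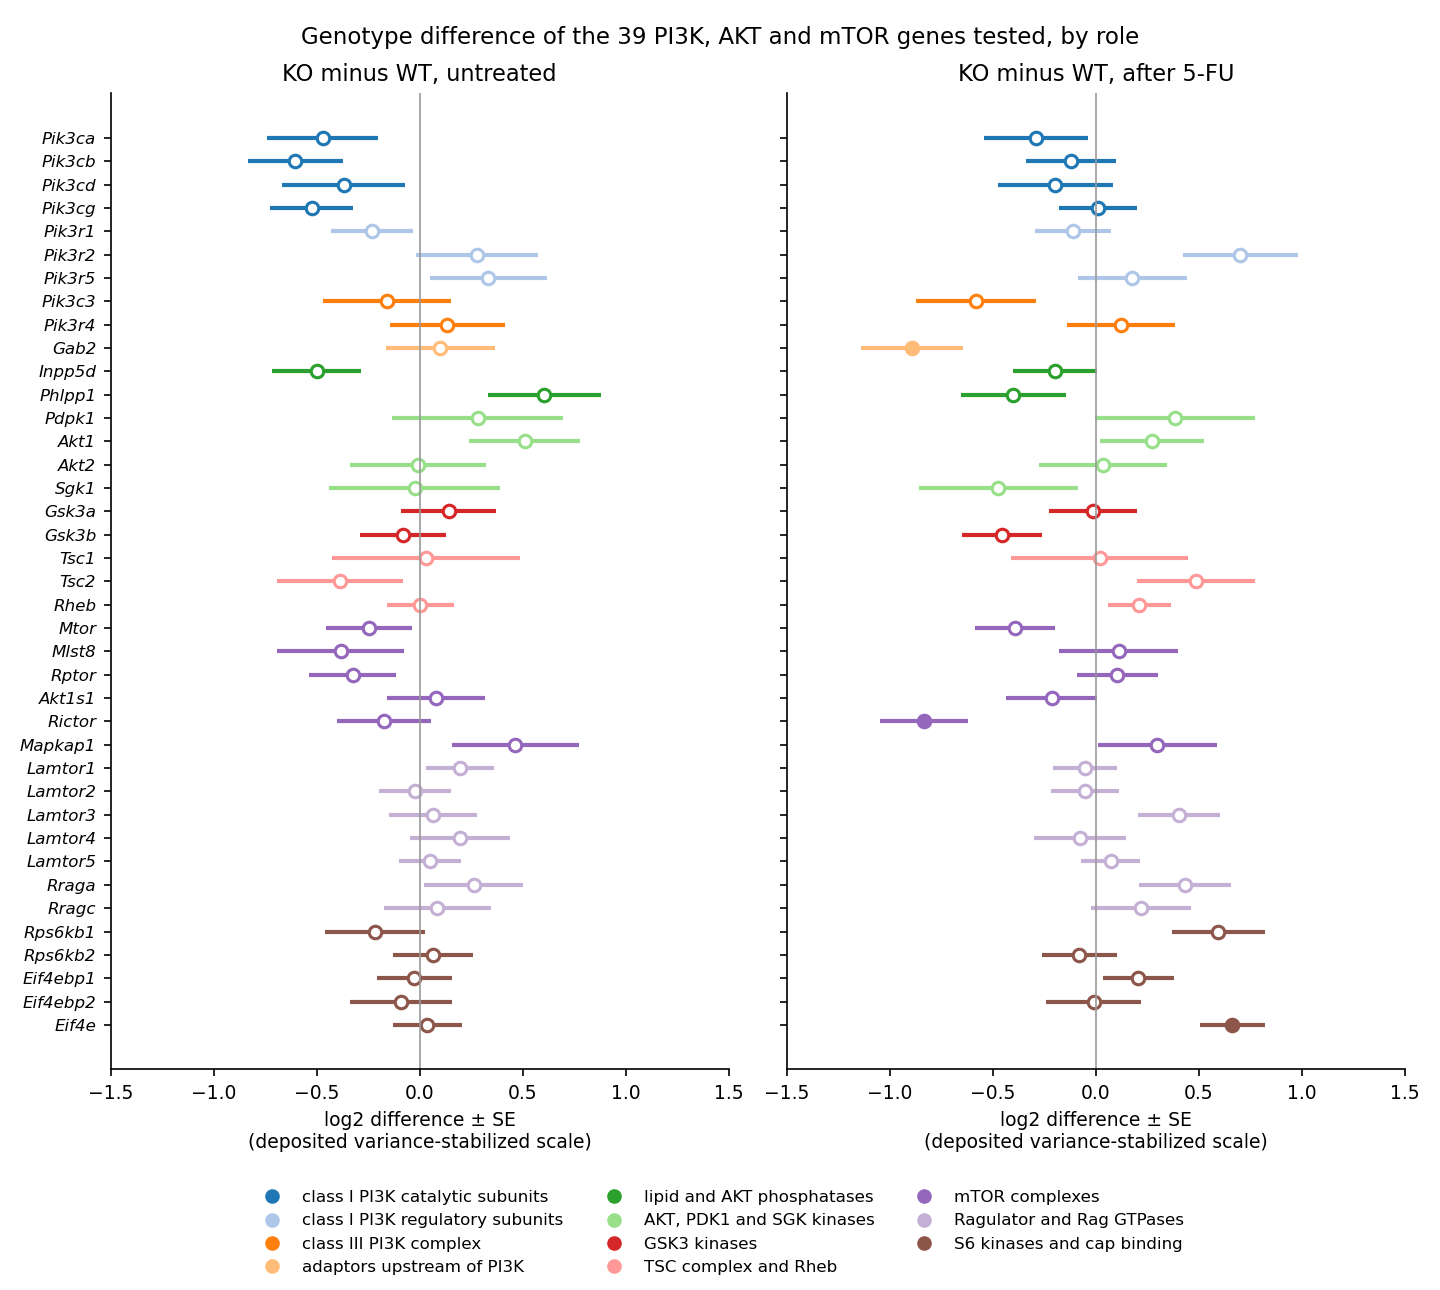
Points give the limma log2 difference of KO minus WT and bars its SE for the 39 genes tested, coloured by role, untreated on the left and after 5-FU on the right; filled points passed at an adjusted p of 0.05. No point is filled on the left, and on the right Gab2 (-0.89), Rictor (-0.83) and Eif4e (0.66) are filled.

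Gab2, a docking adaptor that recruits the p85 subunit of PI3K to activated cytokine receptors, rose with 5-FU in WT HSCs. The gene (ENSMUSG00000004508) lies on chromosome 7 from 97081586 to 97308946 in GRCm38, on the plus strand. Its normalized counts were 148, 185 and 301 in untreated WT, 138, 291 and 313 in untreated KO, 758, 1213, 548 and 1109.9 in 5-FU WT and 312, 211 and 502 in 5-FU KO. All 4 libraries of 5-FU WT stood above all others, and the remaining groups overlapped. In WT it was 4.29-fold higher after 5-FU (907 ± 309 (SD, n = 4) against 211 ± 80.0 (SD, n = 3); log2 difference 1.23, SE 0.25, adjusted p = 0.00645 by limma), and the call held in 23 of 24 alternatives. It was lost with the year of acquisition as a term (adjusted p = 0.0698). After 5-FU Gab2 was 2.65-fold lower in KO than in WT (342 ± 148 (SD, n = 3); log2 difference -0.89, SE 0.25, adjusted p = 0.0293 by limma). This call was lost in 10 of 24 alternatives, among them with A3 and D4 averaged (limma adjusted p = 0.0934) and without 5-FU WT A3 (0.0976), 5-FU WT D4 (0.093), 5-FU KO A5 (0.0992) or 5-FU KO A6 (0.153). In KO the 5-FU difference was 0.23 (limma adjusted p = 0.689), and the difference of the 5-FU effect between genotypes was -0.99 (limma adjusted p = 0.165).

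**Figure D4:**
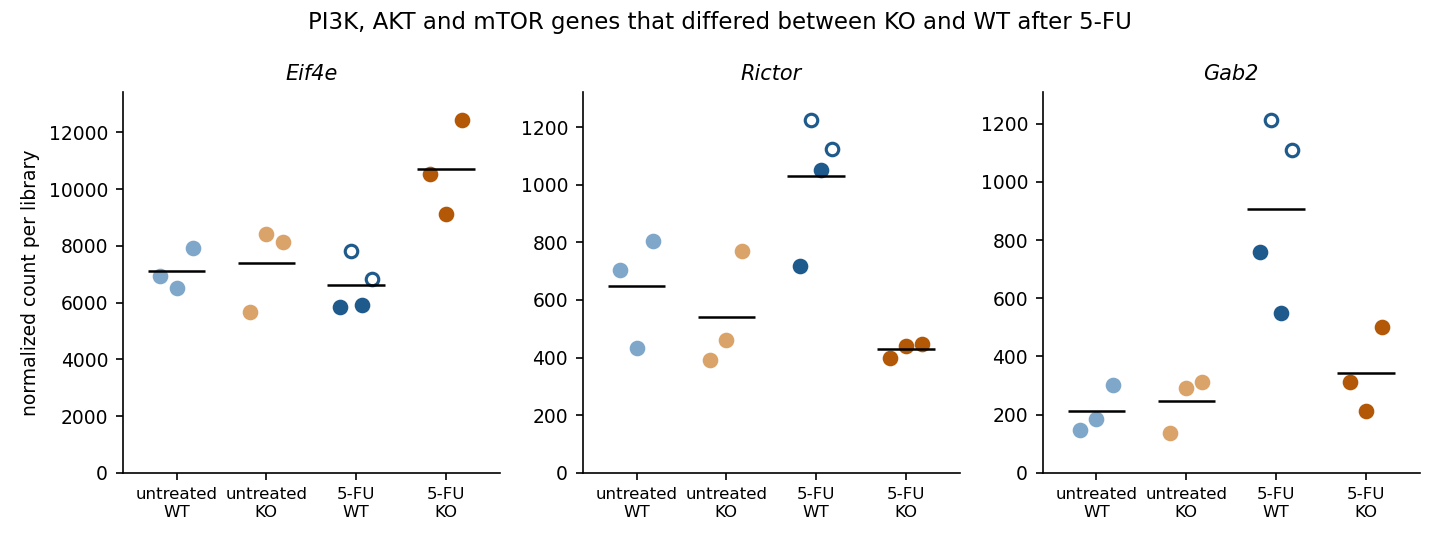
Each point is the normalized count of a library, lines are group means, and open circles mark the nearly identical 5-FU WT libraries A3 and D4. The 5-FU KO libraries lie above 5-FU WT for Eif4e and below it for Rictor and Gab2, without overlap.

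The class I catalytic subunits, the lipid kinases themselves, had no call in any comparison, but in untreated KO all 4 had means below WT. Pik3cb was at 50.9, 161 and 107 in untreated WT and 35.9, 1.64 and 16.9 in untreated KO (log2 difference -0.60, limma adjusted p = 0.378). Pik3cg was at 1076, 907 and 944 and 438, 535 and 799.7 (log2 difference -0.52, limma adjusted p = 0.379). In both genes every KO library lay below every WT library. Pik3ca and Pik3cd, the p110α and p110δ genes, differed by -0.47 and -0.37, the former without overlap and the latter with it. Across all 39 genes, 6 did not overlap between the untreated genotypes, all with KO below WT (Pik3cb, Pik3cg, Pik3ca, Inpp5d, Rptor and Mlst8, 15.4%), against 11.5% of all genes. After 5-FU the catalytic subunits differed between genotypes by -0.29 to 0.01. The smallest p among them was that of Pik3ca, at 672, 240.5, 583 and 251 in 5-FU WT and 391, 281 and 194 in 5-FU KO (log2 difference -0.29, limma adjusted p = 0.532, and -0.42 and 0.416 with A3 and D4 averaged), with A2 and A4 high and A3 and D4 low within 5-FU WT. Pik3cg was 1.55-fold lower in 5-FU WT than in untreated WT (448, 736, 708 and 630.3 in 5-FU WT) without overlap, and did not pass (limma adjusted p = 0.168).

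The p85 type of regulatory subunit holds the catalytic subunits inactive until a receptor is engaged. Of the regulatory subunits, Pik3r2, the p85β gene, stood apart in 5-FU KO. It was at 88.5, 18.5 and 62.3 in untreated WT, 0, 186 and 269.7 in untreated KO, 49.8, 84.0, 51.4 and 77.7 in 5-FU WT and 259, 243 and 224 in 5-FU KO. The 5-FU groups did not overlap, with KO 3.68-fold above WT, while untreated KO ran from 0 (which allows 3 reads, 2.76 normalized counts) to the highest value of all. In the fit over all groups it did not pass (log2 difference 0.70, SE 0.28, adjusted p = 0.122 by limma), nor with A3 and D4 averaged (adjusted p = 0.184 by limma). It passed when only the 2 5-FU groups were fitted (limma adjusted p = 0.0168) and when untreated KO D4 was left out (0.0281). Pik3r1, the p85α gene, stayed between 512 and 1121 in all libraries, with differences of -0.23 untreated and -0.11 after 5-FU. Pik3r5, the p101 partner of p110γ, swung between 0.951 and 157 within and across groups.

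The class III kinase VPS34, encoded by Pik3c3, makes the endosomal lipid PI3P and acts in autophagy, with Pik3r4 as its scaffold. Pik3c3 was at 1173, 500.0 and 1656 in untreated WT, 1044, 799 and 808 in untreated KO, 1398, 1709, 531 and 1453 in 5-FU WT and 778, 684 and 596 in 5-FU KO. After 5-FU, 3 WT libraries were above all KO libraries and A4 was below them (log2 difference -0.58, limma adjusted p = 0.229). Without A4 it passed (log2 difference -0.86, adjusted p = 0.0465 by limma), and with A3 and D4 averaged the log2 difference was -0.48 and the limma adjusted p 0.433. Pik3r4 had group means of 146, 149, 139 and 167.

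The brakes of the route comprised Inpp5d, which encodes the blood cell lipid phosphatase SHIP1, and Phlpp1, a phosphatase that dephosphorylates AKT. Inpp5d was at 713, 519 and 550.3 in untreated WT and 317, 373 and 299 in untreated KO, 1.8-fold lower without overlap (log2 difference -0.50, limma adjusted p = 0.468). It was at 614, 727, 766 and 1006 in 5-FU WT and 551, 463 and 940.5 in 5-FU KO, where the genotypes overlapped. Phlpp1 ran the other way in untreated cells, at 12.1, 78.7 and 121 in WT and 235, 279.6 and 112 in KO, with overlap (log2 difference 0.61, limma adjusted p = 0.479). After 5-FU it was at 76.4, 178, 363 and 149 in WT and 83.3, 139 and 37.7 in KO (log2 difference -0.40, limma adjusted p = 0.361, and -0.41 and 0.457 with A3 and D4 averaged). The difference of its 5-FU effect between the genotypes, -1.01, was the largest in size of the 39 genes and did not pass (limma adjusted p = 0.17).

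The kinases that read PIP3 had no call. Akt1 and Akt2 encode the AKT isoforms, Pdpk1 the activating kinase PDK1, and Sgk1 a related kinase downstream of mTORC2. Akt1 was at 935, 457 and 504, 1515, 1202 and 519, 810.0, 1031, 640.0 and 1107 and 1283, 954 and 1197 in the 4 groups, with genotype differences of 0.51 untreated and 0.27 after 5-FU and overlap in both. Akt2 had group means within 1.06-fold of each other, although its untreated libraries ran from 167 to 913. Sgk1 was at 0, 25.5 and 44.4 in untreated WT, 42.4, 18.0 and 0 in untreated KO, 592, 13.0, 535 and 15.3 in 5-FU WT and 88.7, 56.6 and 55.9 in 5-FU KO. The 0 of untreated WT D1 allows 3 reads, 0.979 normalized counts, and that of untreated KO D6 3.17. Its high 5-FU WT mean thus came from A2 and A4, with A3 and D4 below all 5-FU KO libraries, and the genotype difference after 5-FU was -0.47 (limma adjusted p = 0.498). With A3 and D4 averaged it was -0.77 (limma adjusted p = 0.251), and over the 24 alternatives it ran from -0.78 to -0.16. Pdpk1 split 5-FU WT in the same way, at 754, 46.4, 681 and 59.1, and was at 611, 518 and 237 in 5-FU KO.

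GSK3, which AKT phosphorylates and inhibits, was carried mostly by Gsk3b. Gsk3b was at 3023, 1955 and 3045 in untreated WT, 2033, 2671 and 2739.6 in untreated KO, 2695, 3122, 4603 and 3283 in 5-FU WT and 2449.5, 2805 and 1887 in 5-FU KO. The 5-FU genotypes overlapped at A2 and A6, with KO 1.44-fold lower on average (log2 difference -0.45, limma adjusted p = 0.153, and -0.48 and 0.214 with A3 and D4 averaged). Gsk3a was 3.89-fold higher in 5-FU WT (293, 63.7, 124 and 146) than in untreated WT (57.1, 26.6 and 37.0), without overlap and without passing (limma adjusted p = 0.134). An antisense gene overlaps 28.3% of the exonic bases of Gsk3a, and the sources used here do not state whether counting used strand.

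The TSC complex, the GTPase-activating brake on Rheb, and Rheb itself had no call. Tsc2 was at 1565, 512 and 719 in untreated WT, 286, 792 and 766 in untreated KO, 586, 340.4, 670.4 and 350.0 in 5-FU WT and 718, 649.7 and 1033 in 5-FU KO, and after 5-FU the genotypes overlapped (log2 difference 0.49, limma adjusted p = 0.317, and 0.40 and 0.526 with A3 and D4 averaged). Tsc1 again separated the 5-FU WT libraries, at 1039, 91.3, 658 and 75.7, a range that enclosed the 5-FU KO libraries (266, 518 and 273). Rheb was steadier, between 1669 and 3192 in all 13 libraries. Its 5-FU WT libraries (2394, 2212, 2272 and 2376) all lay above untreated WT (2013, 1806 and 2208), a 1.15-fold difference that did not pass (limma adjusted p = 0.54).

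Among the 6 genes of the mTOR complexes, Rictor, the scaffold that defines mTORC2, was lower in KO after 5-FU. The gene (ENSMUSG00000050310) lies on chromosome 15 from 6708379 to 6800401 in GRCm38, on the plus strand. Its normalized counts were 704, 432 and 806 in untreated WT, 392, 462 and 769 in untreated KO, 719, 1224, 1052 and 1126 in 5-FU WT and 399, 439.8 and 447 in 5-FU KO. The 5-FU KO libraries lay close together below every 5-FU WT library, while the untreated genotypes overlapped. It was 2.4-fold lower in KO (429 ± 26.0 (SD, n = 3) against 1030.1 ± 219 (SD, n = 4); log2 difference -0.83, SE 0.21, adjusted p = 0.0181 by limma). The 5-FU WT mean lay above untreated WT (log2 difference 0.48, limma adjusted p = 0.189) and the 5-FU KO mean below untreated KO (-0.18, 0.73), and neither passed. The genotype call was lost in 8 of 24 alternatives. These were limma-voom (adjusted p = 0.0508), A3 and D4 averaged (0.058), the year term (0.0546), and limma without 5-FU WT A3 (0.0624), 5-FU WT D4 (0.0564), 5-FU KO A5 (0.0726), A6 (0.065) or A8 (0.0553). In all 24 the difference was negative, from -1.25 to -0.75.

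The other mTOR complex genes did not pass after 5-FU. The kinase gene Mtor was at 620.2, 979, 782 and 778 in 5-FU WT and 560.3, 557 and 446 in 5-FU KO, 1.52-fold lower without overlap (log2 difference -0.39, limma adjusted p = 0.225). Mapkap1, which encodes the mTORC2 subunit SIN1, was at 598, 114, 511 and 167 in 5-FU WT and 263, 546 and 553 in 5-FU KO, with A3 and D4 low (log2 difference 0.30, limma adjusted p = 0.577). The mTORC1 scaffold Rptor was lowest in untreated KO, at 72.8, 44.2 and 89.9, and was at 192, 275 and 196 in 5-FU KO, 3.21-fold higher without overlap and short of the threshold (log2 difference 0.62, limma adjusted p = 0.0954). Mlst8, a subunit of both complexes, and Akt1s1, which encodes the mTORC1 inhibitor PRAS40, had group means of 191, 90.3, 131 and 131 and of 138, 156, 178 and 117. Mlst8 was at 0 in 5-FU WT A4, which allows 3 reads, 2.85 normalized counts.

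Ragulator, encoded by Lamtor1 to Lamtor5, anchors the Rag GTPases to the lysosome, where they recruit mTORC1 when amino acids are present. These 7 genes had no call in any comparison, and Lamtor5 was the steadiest of the 40, between 2759.9 and 3731 in all libraries, with the highest 1.35-fold above the lowest. Lamtor3 was at 2467, 1441, 2755 and 1610.0 in 5-FU WT and 2956, 2733 and 2635 in 5-FU KO (log2 difference 0.40, limma adjusted p = 0.225, and 0.30 and 0.467 with A3 and D4 averaged), with A3 and D4 the low libraries. Rraga, the RagA gene, was at 381, 381, 259.6 and 345 in 5-FU WT and 427, 557 and 732 in 5-FU KO, 1.67-fold higher without overlap (log2 difference 0.43, limma adjusted p = 0.248). The genotype differences of Lamtor1, Lamtor2, Lamtor4, Lamtor5 and Rragc after 5-FU lay between -0.08 and 0.22. With 5-FU in KO, Lamtor2 and Lamtor3 lay above and Lamtor1 below the untreated libraries without overlap. This was the comparison with the most genes apart, 10 of 39 (25.6%, 8 higher and 2 lower after 5-FU), against 28.8% of all genes. In WT 4 of 39 did not overlap between untreated and 5-FU (10.3%, against 16.7%), and between the genotypes after 5-FU 7 of 39 (17.9%, against 27.0%).

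At the translation end, Eif4e, which encodes the protein that binds the mRNA cap, was higher in KO than in WT after 5-FU. Its normalized counts were 6946, 6513 and 7925 in untreated WT, 5672, 8429.6 and 8126 in untreated KO, 5853, 7826, 5906 and 6836 in 5-FU WT and 10548, 9124 and 12432 in 5-FU KO. Every 5-FU KO library was above every library of the other 3 groups, which overlapped one another. The difference between the 5-FU genotypes was 1.62-fold (10701 ± 1659 (SD, n = 3) against 6605 ± 931 (SD, n = 4); log2 difference 0.66, SE 0.16, adjusted p = 0.0117 by limma). The call held in 23 of 24 alternatives, A3 and D4 averaged included (adjusted p = 0.0152 by limma), with log2 differences of 0.48 to 0.77. It was lost without 5-FU KO A8, the highest library (log2 difference 0.55, limma adjusted p = 0.0739). In KO 5-FU went with a difference of 0.52 (limma adjusted p = 0.0801) and in WT with -0.11 (0.734), and the test of these 2 against each other gave 0.63 (limma adjusted p = 0.165).

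Eif4e has a processed pseudogene, Gm7327, that matches it over 654 bases at 98.6% identity and has its own row in the table. Gm7327 held at most 10.3% of the Eif4e count in any library, and its difference between the 5-FU genotypes was 0.44 (limma adjusted p = 0.273). Of the 40 genes, 9 had a near copy, 12 had exons that overlap those of another gene, and 22 had neither. Those with a near copy were Eif4e, Eif4ebp1, Lamtor1, Lamtor3, Lamtor4, Lamtor5, Akt2, Gsk3a and Pik3cb.

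The proximal promoter of Eif4e is shown because it is known to carry repeated E-boxes, the motif CACGTG bound by MYC with MAX and, within longer sites, by the lysosomal regulator TFEB. The RefSeq start used lies within the annotated gene (ENSMUSG00000028156) on chromosome 3 (138526179 to 138559696, plus strand), and the 250 bases before it, chr3:138527018-138527267 (GRCm38.p6, plus strand), read as follows, with the E-boxes in capitals.
Eif4e: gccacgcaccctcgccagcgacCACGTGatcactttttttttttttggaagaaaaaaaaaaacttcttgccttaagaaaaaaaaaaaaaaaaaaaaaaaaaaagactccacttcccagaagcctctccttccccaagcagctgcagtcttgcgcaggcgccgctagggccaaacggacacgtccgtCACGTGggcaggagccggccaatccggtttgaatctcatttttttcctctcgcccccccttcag
The E-boxes begin 228 and 64 bases before this start. Another RefSeq start of Eif4e, at 138526191, had no E-box from 250 bases before to 50 after it. Windows of 300 bases, from 250 before to 50 after the start, were found in RefSeq for 35 of the 40 genes. Of these, 7 (20.0%) held CACGTG, which reads the same on both strands, against 11.8% of 9505 tested genes with a window. They were Eif4e, Irs2, Sgk1 and 4 genes of the lysosomal arm of mTORC1, whose E-boxes are given with 10 bases on each side, in the direction of transcription, to show what surrounds the shared core.
Lamtor1, 68 bases before the start, chr7:101905759-101905784, plus strand: gccttcctatCACGTGccgcgggtcc
Lamtor4, 120 bases before the start, chr5:138255352-138255377, plus strand: agaaagttaaCACGTGaacagctttt
Rheb, 96 bases before the start, chr5:24842442-24842467, minus strand: cgcgcgcggtCACGTGggtgtgttgt
Rragc, 112 bases before the start, chr4:123917311-123917336, plus strand: tgattccgggCACGTGatagtaccac
Lamtor4 held a further E-box 104 bases before its start. The FoxO motif GTAAACA, or TGTTTAC on the other strand, was in the windows of Akt1, Mapkap1 and Pik3cg, 3 of 35 (8.57%), against 3.11% of the same 9505 genes. Genes could have several windows, 51 for the 35 genes and 12104 for the 9505. Per window, the shares with the E-box were 13.73% and 10.02%, closer together than per gene. Those with the FoxO motif were 7.84% and 2.59%. The matches of both motifs describe the sequence only.

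The remaining translation genes did not pass. Rps6kb1, which encodes the S6 kinase S6K1, was at 990.2, 394 and 686 in untreated WT, 615, 425 and 535 in untreated KO, 362, 430.2, 266 and 376 in 5-FU WT and 670.5, 939 and 515 in 5-FU KO. The 5-FU KO libraries were all above 5-FU WT, 1.97-fold on average (log2 difference 0.59, SE 0.23, adjusted p = 0.105 by limma). Rps6kb2 was at 49.3 to 93.6 in group means, and 23.7% of its exonic bases overlap Ptprcap on the other strand. Eif4ebp1, whose product sequesters eIF4E, was at 3747, 3090.0, 3408 and 3341 in 5-FU WT and 3860.4, 3402 and 4756 in 5-FU KO, with overlap (log2 difference 0.21, 95% interval -0.15 to 0.57, limma adjusted p = 0.502). Eif4ebp2 differed by -0.01.

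Around the 40 genes, a wider list of 100 receptors, regulators and outputs of the pathway was examined, of which 93 were in the table and 92 were tested. In untreated HSCs none was called between KO and WT by limma, and 8 passed at an unadjusted p below 0.05 (8.70%, against 10% of all genes). After 5-FU, 11 were called (12.0%, against 10.9% of all genes), 2 higher and 9 lower in KO, and 27 did not overlap (29.3%, against 27.0%). The 2 higher were Ruvbl2 and Ruvbl1, ATPases that help assemble the mTOR kinase family (log2 difference 1.05 and 0.60, limma adjusted p = 0.00182 and 0.0107). The largest change was in Pdcd4, which encodes an inhibitor of the helicase eIF4A that S6 kinase marks for destruction. Pdcd4 was at 4587, 2704 and 2897 in untreated WT, 2548, 3859 and 1794 in untreated KO, 7604, 10209, 12167 and 12834 in 5-FU WT and 1932, 2225 and 2243 in 5-FU KO. It rose 3.15-fold with 5-FU in WT (log2 difference 1.56, limma adjusted p = 0.000476), and after 5-FU it was 5.02-fold lower in KO (log2 difference -2.12, SE 0.22, adjusted p = 2.89e-05 by limma). Pik3ip1, which encodes a membrane inhibitor of class I PI3K, was at 1144, 1294, 1504 and 1227 in 5-FU WT and 146, 399 and 385 in 5-FU KO, 4.17-fold lower (log2 difference -1.40, SE 0.21, adjusted p = 0.000418 by limma). The receptor gene Kit was at 3521, 4121, 5161 and 4496 and 1572, 1606 and 1428 (log2 difference -1.29, SE 0.20, adjusted p = 0.000599 by limma). Kit stands in the HSC marker list too. Also lower in KO were the phosphatase genes Inpp5k (-1.52), Inpp4a (-0.78) and Mtm1 (-0.86), the folliculin gene Flcn (-0.85), which acts on the Rag GTPases, and Atg14 (-0.95), a VPS34 partner. With A3 and D4 averaged, or with either left out, 8 were called, and Atg14, Inpp4a and Mtm1 were not. Leaving out 5-FU KO A6 or A8 left 7 called in each case. Without A6 the calls of Flcn, Atg14 and Inpp4a were among those lost, and without A8 the calls lost were those of Ruvbl1, Mtm1, Atg14 and Inpp4a. Without 5-FU KO A5 the call of Flcn was lost (limma adjusted p = 0.0686).

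**Figure D5:**
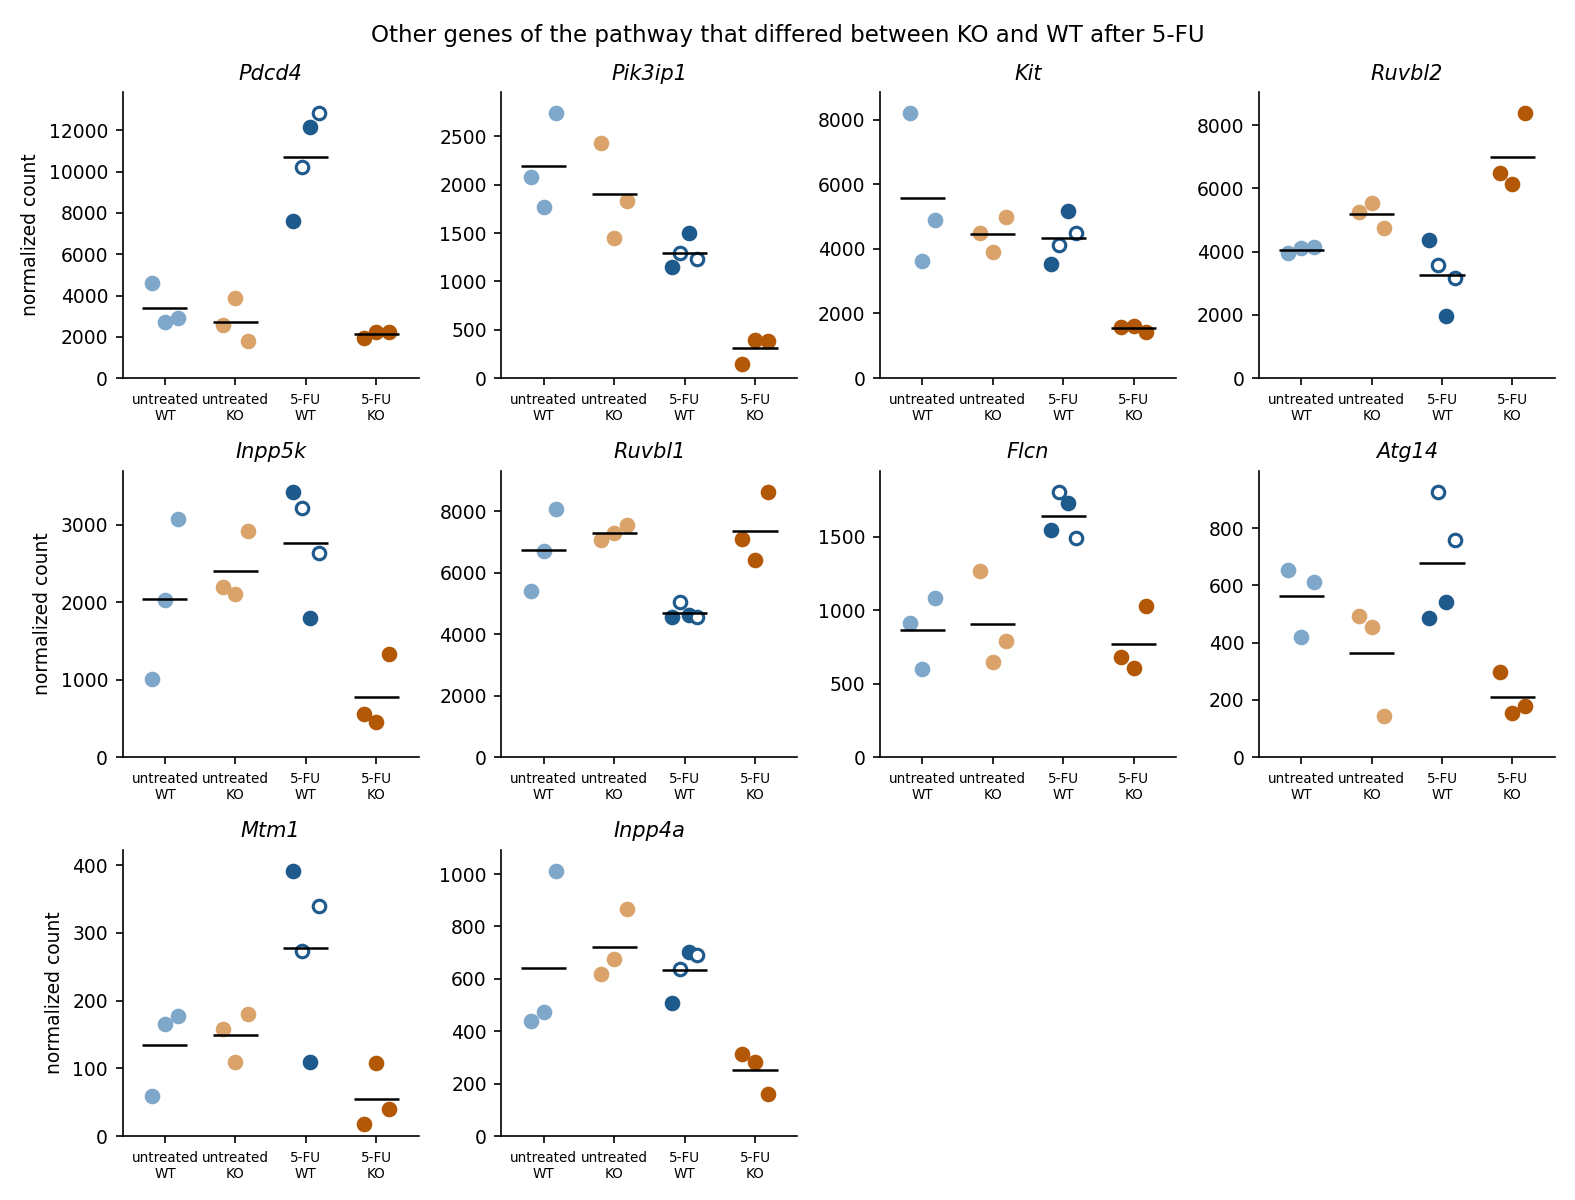
10 of the 11 genes of the wider list called between KO and WT after 5-FU, plotted as in the plot of Eif4e, Rictor and Gab2, with each axis starting at 0. Pdcd4 is high in the 4 5-FU WT libraries, and Pik3ip1 and Kit are low in the 3 5-FU KO libraries.

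5-FU called 7 of the 92 in WT (7.61%, against 6.68% of all genes), 5 higher and 2 lower, and 7 in KO (7.61%, against 5.92%), all lower. The shares called in either direction are near those of all genes, while 3.14% of all genes were called lower with 5-FU in KO. In WT, Pdcd4, the AMPK subunit gene Prkab1 (0.64), the lipid phosphatase gene Inpp4b (0.78) and Flcn (0.73) were among those that rose, and Mitf (-0.84) among those that fell. Mitf was at 86.8, 78.7 and 106 in untreated WT and had a single read in the 4 5-FU WT libraries together, in A3. With A3 and D4 averaged, or with either left out, 4 of the 7 were called, Pdcd4 and Mitf among them, and Prkab1, Inpp4b and Flcn were not. Prkab1 also lost its call without untreated WT D1 or D3 or 5-FU WT A2 (limma adjusted p of 0.0663 to 0.1). Inpp4b lost its call without untreated WT D1 or D3 or any 5-FU library except WT A2 (0.0527 to 0.126), and Flcn without untreated WT D1 or D2, untreated KO D6 or any 5-FU library except KO A8 (0.0511 to 0.153). In KO, Pik3ip1 (-1.83), Kit (-1.34), Inpp5k (-1.36), the phosphatidate phosphatase gene Lpin1 (-0.96), Inpp4a (-0.90) and Maf1 (-1.06), a repressor of RNA polymerase III, were among those that fell. Of the 7, 3 were called without 5-FU KO A5, 5-FU KO A6 or untreated KO D6, Pik3ip1 and Kit among them, and 4 without untreated KO D5, the same 3 with Inpp5k. Without 5-FU KO A8 the calls of Lpin1, Inpp4a and Maf1 were lost, without untreated KO D4 that of Inpp4a, and without 5-FU WT A3 or D4 that of Maf1. The median log2 difference of the 92 genes was -0.02 between KO and WT after 5-FU and -0.06 with 5-FU in KO, beside -0.02 and -0.01 for all genes. These comparisons share libraries, so their lists are not independent of one another.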

How the data were processed

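RNA of 13 pools of 100 sorted mouse bone marrow HSCs was sequenced after Smart-seq2. Per the submitters' processing notes, Trimmomatic, Bowtie 1.1.1, DESeq2 and the mm10 genome were used; the sources used here do not give the counting program, its annotation or its strand setting, so reads of a gene and of a gene on the other strand over the same bases cannot be told apart. The table deposited by the authors holds 13201 genes on a log2-type scale from DESeq2's variance-stabilizing transformation, which flattens changes of low genes, so fold changes from it are understated there. Inverting that scale gave values within 0.1 of a whole read for 100% of values in all libraries, and the normalized counts and folds of group means printed here come from that inversion. Library totals of 11416753 to 45384866 reads set the precision, and limits for a count of 0 are 3 reads per library.

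Gene symbols, lengths and positions came from GENCODE M21 (GRCm38), which named 13054 of the 13201 identifiers, and promoters from RefSeq (GRCm38.p6). The deposited values were fitted with limma 3.58.1 (R 4.3.3) with 4 group means over all 13 libraries and an intensity trend, and p-values were adjusted by Benjamini-Hochberg over the 12846 genes that reached a normalized count of 10 in 3 or more libraries. Log2 differences, SE and 95% intervals are on the deposited scale; "did not overlap" means that every library of a group lay above every library of the other. Groups came from the sample labels, and 0 columns were left unmatched. The fit was tested on simulated data. Alternatives were other scalings, pseudocounts of 1 and 5, no filter or a minimum of 50, limma-voom on the recovered reads, robust estimation, only the groups compared, A3 and D4 averaged, year of acquisition as a term, a threshold of 0.1, and each library left out.

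The members and gene lists were chosen with earlier results of these data known. By the rule used for naming, genes among the 40 that passed, and otherwise the gene of each role with the smallest p after 5-FU, are given in full, and of the wider list up to 6 genes per direction and comparison. Further genes of the 40 given by library, and Atg14, Mtm1, Inpp4a (KO against WT) and Maf1, were chosen after their values were seen. Of the wider list, Pik3r3, Pik3r6, Irs1, Inppl1, Foxo4, Ddit4 and Rragd were not analysed here, and some other genes of the lists are counted but not reported here by name.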

Additional observations from a re-analysis of the deposited data

Results flagged for a closer look

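Among the 40 genes, 2 had a 5-FU WT library that stood apart from the other 3 by Dixon's criterion, which chance alone meets in about 1 of 20 groups and which applies only to 5-FU WT, the single group of 4. Pik3cd was lowest in A4, at 242 against 428 to 469 in the others, and Rragc was highest in A4, at 1260.1 against 588 to 669. In the wider list Ruvbl1 was highest in A3, at 5059.

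In 4 genes of the wider list the 5-FU effect differed between the genotypes by a test of the difference itself (limma, 2.84% of all genes), and in none of the 39 tested of the 40 genes. Pdcd4 differed by -1.82 (SE 0.33, adjusted p = 0.00907 by limma): it rose with 5-FU in WT by 1.56 and had a difference of -0.26 in KO (limma adjusted p = 0.608). It kept this call in all 14 alternatives run for it. Inpp5k differed by -1.81 (limma adjusted p = 0.0344) and lost the call in 10 of 14 alternatives, with A3 and D4 averaged and without any library other than untreated WT D2 or D3, 5-FU WT A4 or 5-FU KO A8 (limma adjusted p of 0.0505 to 0.105). Pik3ip1 differed by -1.21 (limma adjusted p = 0.0424) and lost the call in 11 of 14, with A3 and D4 averaged and without any library other than untreated WT D3, untreated KO D5 or 5-FU WT A2 (0.0503 to 0.118). Cab39, which encodes a partner of the kinase LKB1, differed by 1.24 (limma adjusted p = 0.0493) and lost the call in 11 of 14, with A3 and D4 averaged and without any library other than untreated WT D3, 5-FU WT A2 or 5-FU KO A8 (0.0566 to 0.135).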

How the results depend on the processing

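Of the calls among the 40 genes, Eif4e after 5-FU and Gab2 with 5-FU in WT each held in 23 of 24 alternatives, and Rictor and Gab2 after 5-FU held in 16 and 14 of 24. The number called between KO and WT after 5-FU, 3, became 1 with limma-voom, 1 with A3 and D4 averaged and 1 with the year term, each time Eif4e. Leaving out single libraries gave 1 to 4, with 1 without 5-FU WT A3 or D4 or 5-FU KO A5 or A6 (Eif4e) or A8 (Gab2), and 4 without 5-FU WT A4 (Pik3c3 added) or untreated KO D4 (Pik3r2 added). With 5-FU in WT, the fit with the year term rests on 5-FU WT D4 alone, and Gab2 had a difference of 1.48 there without a call. With 5-FU in KO a threshold of 0.1 gave 2 (Eif4e and Rptor). In the wider list, leaving out single libraries gave 7 to 14 calls between KO and WT after 5-FU, 4 to 9 with 5-FU in WT, 3 to 9 with 5-FU in KO and 1 to 6 for the difference of the 5-FU effects. Averaging A3 and D4 gave 4 with 5-FU in WT and 1 for the difference of the effects. The direction turned only in differences near 0 that had no call. Leaving out single libraries gave -0.00067 (untreated WT D1) to 0.27 for Gab2 untreated, -0.30 to 0.0052 (untreated KO D6) for Rictor with 5-FU in KO, and -0.061 to 0.21 for Eif4e untreated, below 0 without untreated WT D2, untreated KO D5 or D6, and quantile normalization gave -0.045 for the last. Except where fewer libraries were fitted, the cause was not tested. The largest shift of the median of all genes under another scaling was 0.09. No paired analysis was possible because the groups compared share fewer than 2 replicate numbers. Most simulated 2-fold changes were not called, a share that need not hold for these data. The year cannot be told apart from 5-FU treatment beyond a single library, 5-FU WT D4. Between KO and WT after 5-FU, the year term gave the same differences as leaving D4 out, for Rictor (-0.80) and for Gab2 (-0.81). It is thus not a separate alternative there.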
